A study of Mus musculus with 16 samples.

Results

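The mRNAs of the cytosolic ribosomal proteins were followed in mouse testis RNA divided by immunopurification with J2, an antibody against double-stranded RNA. They were taken by symbol: Rpl or Rps with a number and at most a short copy suffix, together with Rplp0, Rplp1, Rplp2 and Rpsa. The rule found 85 of the 35920 genes, made up of 46 proteins of the large subunit, 30 of the small subunit, the testis paralogues Rpl10l and Rpl39l, and 7 other paralogues. RefSeq annotates 83 of them as protein-coding, Rpl6l as a pseudogene and Rps4l as a transcribed pseudogene, and neither of these 2 was called in a comparison under the authors' scaling. Further ribosomal components whose names fall outside the rule, among them Rps3a1, Fau and Rack1, were kept apart. The bound RNA (J2) and the unbound RNA (flow-through, described in the labels as depleted of rRNA and dsRNA) were sequenced separately in 16 libraries from 6 groups.

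The knock-out groups are testes of mice 18 days old (P18) with the genotype Dcr-/-, the adult groups are testes labelled wild type with strain unknown, and the reference for both is wild-type testis at P18. The P18 mice of both genotypes had the background C57BL/6 x 129S4/SvJae, so age and strain cannot be told apart in the adult comparisons. The labels name no promoter or Cre for the knock-out and give no exact age for the adults. Each P18 group had 3 libraries and each adult group had 2, and nothing states that they came from separate animals. The p-values therefore measure the spread between these libraries, which may be technical.

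Ribosomal proteins assemble with rRNA into the large subunit, which forms peptide bonds, and the small subunit, which reads the mRNA. Their mRNAs are short, abundant in nearly every cell, and in mammals start with a pyrimidine tract (the TOP motif) through which growth signals control their translation. Several ribosomal protein genes lie on the X chromosome, which is silenced in meiotic male germ cells, and some of these have intronless autosomal copies that are active in testis. The family also has very many processed pseudogenes, so that short reads from one mRNA can match several places.

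All 85 genes had coordinates in the RefSeq annotation of GRCm38.p6. Chromosome 7 held 14 of them, and 4 were X-linked (Rpl10, Rpl39, Rpl36a and Rps4x). RefSeq start windows were at hand for 63. To show the start regions of the genes on which the results turn, 40 bases before and 30 after the start are printed on the coding strand for Rpl28 (chr7:4792925-4792994, plus strand), Rpl35 (chr2:39005102-39005171, minus), Rps26 (chr10:128626477-128626546, minus), Rps15 (chr10:80292391-80292460, plus), and the X-linked and autosomal pairs Rpl10 (chrX:74270776-74270845, plus), Rpl10l (chr12:66284372-66284441, minus), Rpl39 (chrX:37085193-37085262, minus) and Rpl39l (chr16:10170188-10170257, plus). Capitals mark CTTTC, a run found in TOP starts, and TTCCGG, the letters of an ETS family site.
Rpl28: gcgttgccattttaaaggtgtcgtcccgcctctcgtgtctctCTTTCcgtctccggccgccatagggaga
Rpl35: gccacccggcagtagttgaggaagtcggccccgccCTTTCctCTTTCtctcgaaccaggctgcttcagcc
Rps26: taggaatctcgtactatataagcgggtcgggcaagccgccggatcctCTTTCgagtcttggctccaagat
Rps15: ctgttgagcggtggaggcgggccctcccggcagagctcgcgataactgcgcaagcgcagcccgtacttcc
Rpl10: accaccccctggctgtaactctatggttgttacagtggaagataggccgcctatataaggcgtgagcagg
Rpl10l: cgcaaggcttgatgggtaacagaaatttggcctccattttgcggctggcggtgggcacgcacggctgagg
Rpl39: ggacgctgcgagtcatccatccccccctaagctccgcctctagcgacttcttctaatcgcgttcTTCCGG
Rpl39l: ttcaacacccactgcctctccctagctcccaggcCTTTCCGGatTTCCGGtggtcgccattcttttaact

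CTTTC, searched on both strands from 20 bases before to 50 after the start, was present in 35 of the 63 windows (55.6%), against 16.9% of all 27025 windows. The share was 64.7% in the 34 large-subunit windows and 40.9% in the 22 small-subunit windows. TTCCGG, searched on both strands over 250 bases before to 50 after the start, was present in 31 of 63 (49.2%), against 15.2% of all windows. The 2 motifs can overlap, as they do in Rpl39l, where CTTTCCGG holds both. The letters were chosen after others had been looked at, so these shares are descriptions only. Since CTTTC was counted on either strand and anywhere in its range, a hit need not lie in a TOP start. In the printed windows, Rps15, Rpl10 and Rpl10l show neither motif, Rpl39 shows TTCCGG and its copy Rpl39l shows both.

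The values are the authors' normalized counts, a signal per gene that is not divided by gene length. The totals were 0.446 to 0.824 M units (M, 1e+06) in J2 and 6.05 to 34.9 M units in flow-through. Each library's 10 highest features took up 43.6% to 67.5% of it in J2 and 95.8% to 98.8% in flow-through. A value of 10 corresponded to about 19.4 to 86.3 reads in J2 and to 3.62 to 4.99 reads in the 3 flow-through libraries where the worth of a read could be estimated. A 0 in flow-through is therefore a weaker statement than a 0 in J2. Adult J2 replicate 2 stood apart, with 22683 genes above 0 against 6874 to 11591 in the other J2 libraries. Dicer1 was at most 8.33 in the knock-out libraries and at most 12.4 in the wild-type P18 libraries, too low to check the labels. The adult and P18 labels were checked with spermatid markers (Prm1, Prm2, Tnp1, Tnp2, Acrv1 and Spaca1). These summed to 887 to 2045 in adult libraries and to 0 to 13.9 in P18 libraries. Sums this low cannot check the tissue label of the P18 libraries.

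The summed signal of the ribosomal protein mRNAs separated the J2 fraction of P18 testis from every other group. In J2 it was 4355, 6481 and 9595 in knock-out, 3237 and 1725 in adult, and 9192, 8146 and 6511 in wild-type P18 libraries. In flow-through it was 3551, 2342 and 2013 in knock-out, 1734 and 2191 in adult, and 2191, 1862 and 2826 in wild-type P18 libraries. All 6 P18 J2 libraries lay above all 8 flow-through libraries, while the adult J2 values overlapped the flow-through values. As a share of the signal without the 10 highest features of each library, the mRNAs made up 2.22% to 3.52% of knock-out J2, 0.716% and 1.25% of adult J2 and 3.24% to 3.83% of wild-type P18 J2, against 0.585% to 1.03% of the flow-through libraries.

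**Figure D1:**
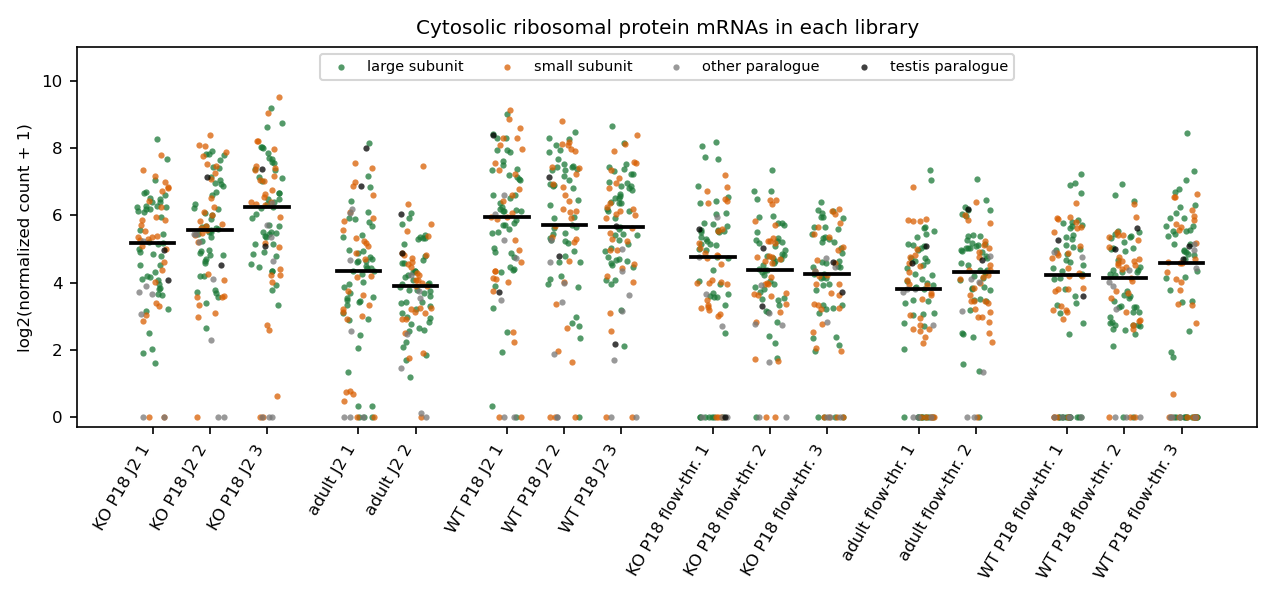
Each point is 1 of the 85 ribosomal protein mRNAs in 1 library, on the log2(normalized count + 1) axis, coloured by class. Black bars are medians over the 85 genes, which reach 5.17 to 6.24 in P18 J2 libraries and 3.82 to 4.77 in the others.

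Replicates of single mRNAs varied widely. The SD of log2(value + 1) within a group had a median over genes of 0.719 in knock-out J2, 0.893 in adult J2 and 0.977 in wild-type P18 J2. Rps12, a small-subunit protein, and the paralogue Rpl6l were listed at 0 in all 16 libraries, and Rpl3l, a muscle paralogue of Rpl3, was above 0 in 2. The other 82 genes passed the filter (a value of at least 10 in 2 of the 16 libraries) and were tested with the rest of the genome. The mRNAs with the highest mean normalized counts, which also depend on mRNA length, included Rpl4, Rpl23a, Rpl7, Rplp0 and Rpl41 for the large subunit and Rps6, Rps26, Rps24 and Rps25 for the small subunit.

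In wild-type P18 testis, ribosomal protein mRNAs of both subunits were higher in the J2 fraction than in the flow-through, relative to the median gene. By limma with Benjamini-Hochberg adjustment (threshold 0.05, 9526 genes tested), 10 of the 82 tested mRNAs rose in J2 and 0 fell, where 0.525% of all genes were called higher and 0.378% lower. At an unadjusted p under 0.05, 41 were higher and 1 was lower, against 648 and 677 of all 9526 genes. The median log2 difference was 1.85 for the 82 mRNAs and -0.05 for all genes, on the log2(value + 1) scale, on which differences of low genes come out too small. It was 1.98 over the 46 large-subunit and 1.89 over the 29 small-subunit mRNAs. In 38 mRNAs (46.3%) all 3 J2 libraries lay above all 3 flow-through libraries, against 7.08% of all genes, and 1 mRNA (Rpl39l) lay wholly below, against 8.3%. Because some genes pass the filter only through J2, the 75 that also passed it within the flow-through libraries of all groups were counted apart. Of these, 9 were called higher, 36 (48%) lay wholly above flow-through, and the median was 1.71. The call left out is that of Rps15. Rpl10, Rpl31 and Rpl35 stayed among the 9 through knock-out or adult flow-through. All their wild-type P18 flow-through values were under 10, so for them this count is no safeguard.

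**Figure D2:**
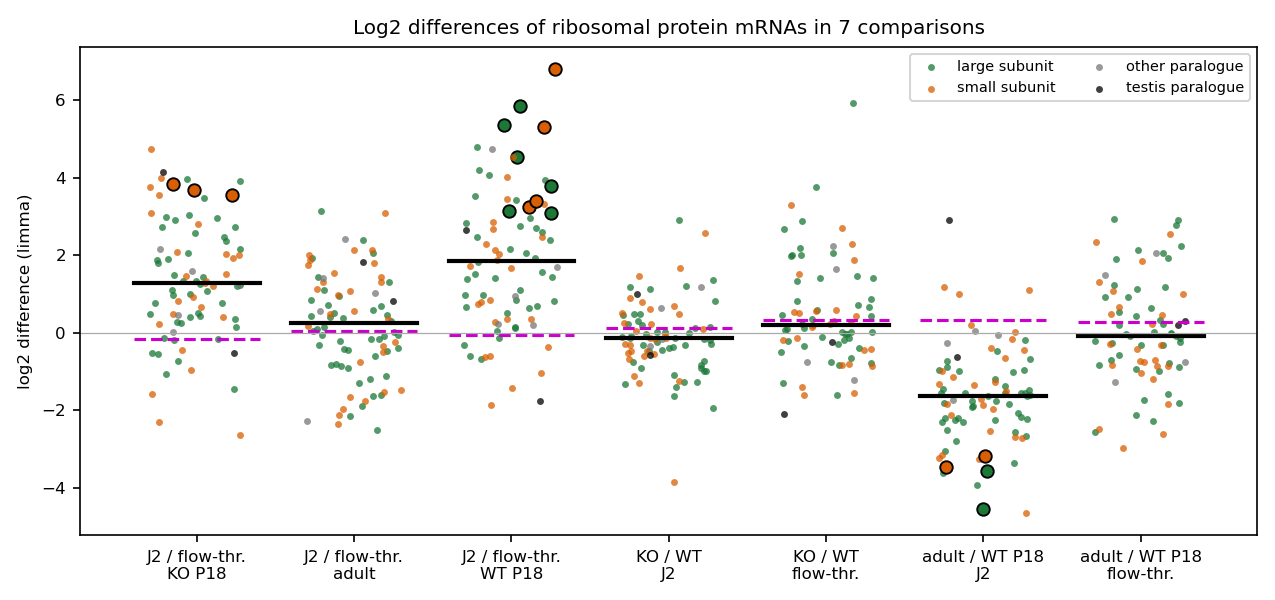
Each point is the limma log2 difference of 1 ribosomal protein mRNA in 1 of 7 comparisons, coloured by class, with large outlined points for those past the adjusted threshold. Black bars are medians over the tested mRNAs and dashed magenta bars are medians over all genes tested, 1.85 and -0.05 for J2 against flow-through in wild-type P18 testis.

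Of the small-subunit mRNAs, Rps15, a protein of the decoding region, had 463, 275 and 188 normalized counts in J2, against 8.16, 5.16 and 5.91 in flow-through (log2 difference 5.31, SE 0.78, limma adjusted p = 0.00123). The fractions were far apart in every library, but all its flow-through values were under 10, so that it passed the filter only through J2, where it is high. Rps3, which lines the mRNA entry channel, had 185, 174 and 138 in J2 and 17.3, 12.5 and 15.1 in flow-through (3.38, SE 0.74, limma adjusted p = 0.0379). Rps26, which contacts the mRNA at the exit side, had 315, 274 and 332 in J2 and 27.1, 24.8 and 46.5 in flow-through (3.24, SE 0.73, limma adjusted p = 0.0468). None of these 3 overlapped between fractions.

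Of the large-subunit mRNAs, Rpl14 had 343, 143 and 181 normalized counts in J2, against 16.8, 5.66 and 27.6 in flow-through (log2 difference 3.80, SE 0.83, limma adjusted p = 0.0379). Rpl23a, at the mouth of the peptide exit tunnel, had 245, 272 and 280 in J2 and 23.3, 31.5 and 34.1 in flow-through (3.14, SE 0.72, limma adjusted p = 0.0469). Rpl7 had 515, 354 and 166 in J2 and 51.4, 19.7 and 46.1 in flow-through (3.08, SE 0.70, limma adjusted p = 0.0469). These 3 were detected in every library of both fractions and did not overlap. Rpl31 (162, 163 and 42.5 in J2) and Rpl35 (19.6, 61.4 and 90.8 in J2), both near the tunnel exit, were each listed at 0 in 2 of the 3 flow-through libraries and had 5.15 and 8.78 in the third. Their log2 differences were 5.84 and 4.52 (SE 1.07 and 0.96, limma adjusted p = 0.0114 and 0.03). The 0 values of Rpl31 and Rpl35 lay in wild-type flow-through replicates 1 and 3. These had 6763 and 5953 genes above 0, against 10497 in replicate 2, so the 0 values may reflect low depth. Rpl10, a late-joining protein near the peptidyl transferase centre, had 29.0, 51.7 and 42.0 in J2 and was listed at 0 in all 3 flow-through libraries (5.35, SE 0.99, limma adjusted p = 0.0128, a size that depends on the pseudocount). Its call ended when its listed copy was added, as given with the copies.

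**Figure D3:**
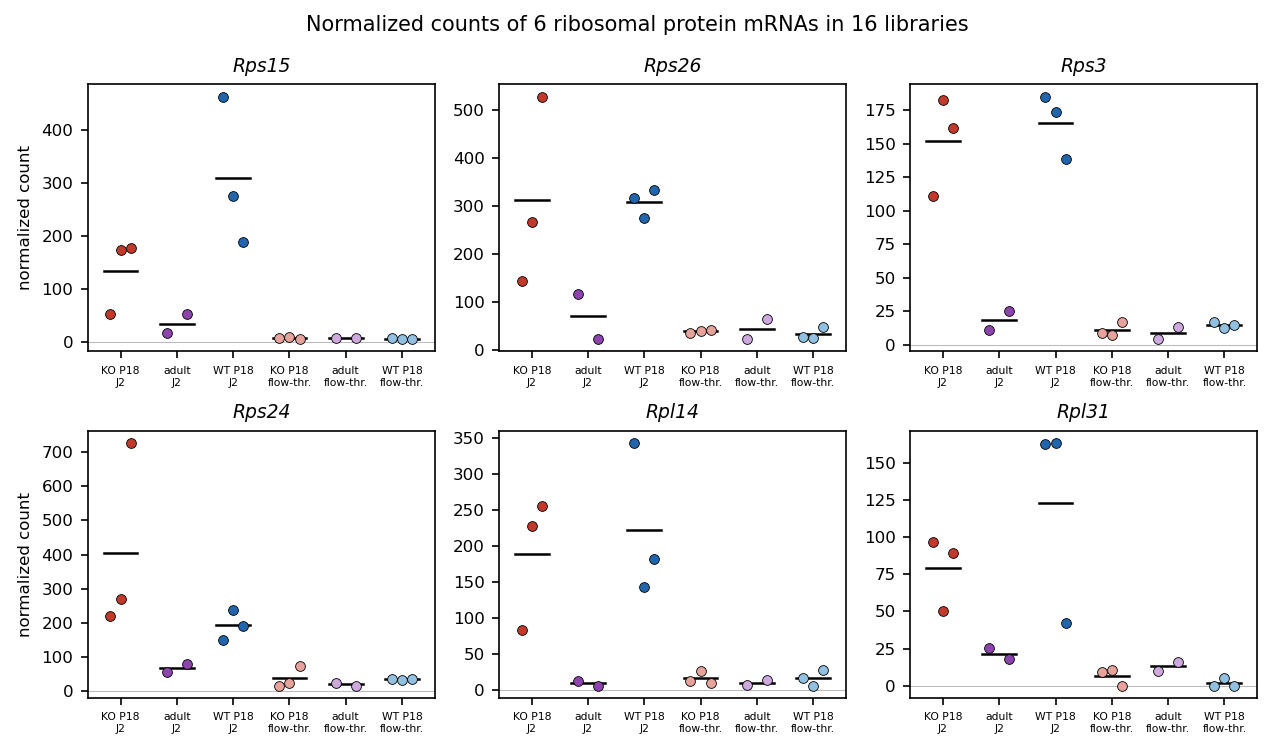
Points are normalized counts of 6 called mRNAs in single libraries (knock-out, adult and wild-type P18, J2 on the left and flow-through on the right) and bars are group means. Rps15 reaches 188 to 463 in wild-type P18 J2 and stays at 5.16 to 9.32 in flow-through.

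Several of these calls lay close to the threshold. Leaving out any 1 of the 6 libraries kept the call of Rps15, and leaving out each of them ended those of Rpl14, Rpl23a, Rps26 and Rps3 (limma adjusted p 0.0527 to 0.140), while their log2 differences stayed between 2.98 and 4.26. Rpl10 was lost without J2 replicate 2, Rpl31 without J2 replicate 1 or 2 or flow-through replicate 1 or 3, Rpl35 without J2 replicate 2 or 3 or flow-through replicate 1 or 3, and Rpl7 without any library except J2 replicate 3. Fraction differences are relative to the authors' scaling, under which the median gene is near 0. In 1 alternative, libraries were rescaled to a common total, summed without the mitochondrially encoded genes. After rescaling to this total, the median log2 difference was 5.01 for the ribosomal protein mRNAs and 1.87 for all genes. Of the 82 mRNAs, 72 (87.8%) were called higher, as were 26.9% of all genes.

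Under the authors' scaling, not every abundant ribosomal protein mRNA was higher in J2. Rplp0, the base of the ribosomal stalk, had 81.2, 112 and 111 normalized counts in wild-type P18 J2 and 118, 85.7 and 348 in flow-through (log2 difference -0.60, SE 0.73, limma adjusted p = 0.764). Rpl41, a very short peptide, had 70.0, 132 and 159 in J2 and 100, 122 and 158 in flow-through (-0.13, limma adjusted p = 0.984). Both overlapped between fractions. Among the other abundant mRNAs, Rpl4 (2.69), Rps24 (2.46), Rps25 (2.14) and Rps6 (2.03) had positive log2 differences and no overlap, with limma adjusted p of 0.0813, 0.102, 0.209 and 0.156. The lowest difference was that of Rps16 (-1.86, limma adjusted p = 0.614), with 4.81, 0 and 43.8 in J2 and 55.2, 11.9 and 16.2 in flow-through.

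In knock-out P18 testis, ribosomal protein mRNAs were again mostly higher in J2 than in flow-through. By limma, 3 of 82 rose (all of the small subunit) and 0 fell, where 0.168% of all genes were called higher and 0.189% lower. At an unadjusted p under 0.05 the counts were 25 and 1, against 457 and 637 of all 9526 genes. Over the 82 mRNAs the median log2 difference was 1.28, against -0.15 for all genes. Of the 75 that passed the filter within flow-through, 2 were called (Rps15 is again the one left out). The median of the 75 was 1.24, and 30 of them (40%) lay wholly above flow-through. J2 lay wholly above flow-through in 34 mRNAs (41.5%, against 6.95% of all genes) and wholly below in 2, among them Rps15a (11.1% of all genes lay below). Of the 38 mRNAs that did not overlap in wild type, 27 (71.1%) lay wholly above flow-through in knock-out too, and these were 79.4% of the 34. Over all genes the same shares were 28.8% of 674 and 29.3% of 662. The difference was above 0 in both genotypes for 62 of the 82 mRNAs and, under the authors' scaling, below 0 in both for 5, among them Rpl39l, Rpl9, Rplp0 and Rps13. Over all 9526 genes, the difference was above 0 for 4354 in wild type and for 4083 in knock-out, each genotype counted singly.

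Rps15 had 52.0, 174 and 177 normalized counts in knock-out J2, against 7.32, 9.32 and 5.77 in knock-out flow-through (log2 difference 3.82, SE 0.78, limma adjusted p = 0.0357). Rps3 had 111, 182 and 162 in J2 and 9.12, 7.72 and 17.5 in flow-through (3.67, SE 0.74, limma adjusted p = 0.0323). Rps24, a protein needed for pre-rRNA processing, had 221, 269 and 727 in J2 and 14.8, 23.2 and 71.6 in flow-through (3.54, SE 0.71, limma adjusted p = 0.0323). The highest difference was that of Rps27a, made as a fusion with ubiquitin, with 161, 90.9 and 83.1 in J2 and 0, 14.7 and 3.14 in flow-through (4.74, limma adjusted p = 0.0885), which did not pass. None of the 3 calls was kept in all 6 leave-one-out fits: Rps3 was lost in each of them, Rps15 in each except that without J2 replicate 1, and Rps24 without J2 replicate 2 or 3 or flow-through replicate 1 or 2.

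In adult testis, under the authors' scaling, no ribosomal protein mRNA differed past the threshold between J2 and flow-through. With limma, 0 of 82 were called in either direction (background 0.147% higher and 0.168% lower). At an unadjusted p under 0.05, 3 were higher and 1 was lower, against 382 and 251 of all 9526 genes. The median log2 difference of the 82 mRNAs was 0.24, against 0.05 for all genes. J2 lay wholly above flow-through in 16 mRNAs and wholly below in 16 (19.5% each), shares near the 18.4% and 17.3% of all genes. Among the 75 that passed the filter within flow-through, 12 (16%) lay wholly above and 15 (20%) wholly below. The highest difference was that of Rpl17 (3.13, limma adjusted p = 0.657), with 60.1 and 12.6 in J2 and 0 and 9.87 in flow-through. The lowest was that of Rpl39 (-2.52, limma adjusted p = 0.853), with 0 and 2.27 in J2 and 18.2 and 4.55 in flow-through. In all, 10 of the 82 mRNAs (12.2%, against 1.05% of all genes) lay wholly above flow-through in all 3 kinds of testis, among them Rpl10l, Rpl17, Rpl31, Rpl4, Rps15, Rps24, Rps25, Rps27a and Rps28. Of these, Rps15 and Rps28 passed the filter only through J2, where they are high.

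No ribosomal protein mRNA differed past the threshold between knock-out and wild-type P18 testis in either fraction. In J2, limma called 0 of 81 (0 of all 6882 genes tested, a background of 0%). At an unadjusted p under 0.05, 0 were higher and 1 was lower, against 291 and 149 of all genes. The median log2 difference was -0.15, against 0.13 for all genes. Knock-out lay wholly above wild type in 3 mRNAs, among them Rps2 and Rps14 (6.12% of all genes did) and wholly below in 6 mRNAs (3.78% of all genes). The extremes were Rpl10a (2.90, limma adjusted p = 0.842), at 67.9, 29.7 and 204 in knock-out and 0, 13.7 and 69.6 in wild type, and Rps15a (-3.85, limma adjusted p = 0.720), at 8.96, 10.9 and 5.73 in knock-out and 383, 288 and 20.5 in wild type. Rps15a thus separated the genotypes in J2 without passing the test.

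In flow-through, limma called 0 of 75 between knock-out and wild type (0 of all 7141 genes tested, again a background of 0%). At an unadjusted p under 0.05, 2 were higher and 2 lower, against 332 and 104 of all genes. The median log2 difference of the 75 mRNAs was 0.21, against 0.33 for all genes. Knock-out lay wholly above wild type in Rpl21, Rplp2, Rpl35 and Rpl10 (7.53% of all genes did) and wholly below in Rps7, Rps25 and Rpl9 (3.04%). Rpl10 had the highest difference (5.91, limma adjusted p = 0.276) and its autosomal copy Rpl10l the lowest (-2.09, limma adjusted p = 0.810). The size for Rpl10 comes from values of 0 in all wild-type flow-through libraries. With its listed copy Rpl10-ps3 added, it had 81.6, 51.2 and 49.5 in knock-out and 26.6, 33.7 and 36.5 in wild-type flow-through. The test of whether the J2 to flow-through difference depended on genotype called 0 of 82 and 0 of all 9526 genes (background 0%). At an unadjusted p under 0.05 by limma, 0 were higher and 4 lower, against 208 and 247 of all genes. The median of this interaction was -0.38, against -0.09 for all genes, from Rpl10 (-5.88) to Rps27 (3.204). The extreme of Rpl10 uses the same wild-type values of 0. That of Rps27 uses a 0 in wild-type J2 replicate 2, where its listed copy Rps27rt had 101.

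Most ribosomal protein mRNAs were lower in adult J2 than in wild-type P18 J2. By limma, 4 of 81 fell, among them Rpl14, Rpl28 and Rps3, and 0 rose, where 0.392% of all genes were called lower and 5.07% higher. At an unadjusted p under 0.05, 30 were lower and 1 was higher, against 232 and 736 of all 6882 genes. The median log2 difference was -1.62, against 0.33 for all genes. Of the 81 differences, 74 were below 0, including all 46 of the large subunit, against 2985 of all 6882 genes. Adult lay wholly below P18 in 42 mRNAs (51.9%, against 8.83% of all genes) and wholly above in Rpl39l (18.7% of all genes lay above). In bulk samples, fewer cells of a type and less RNA per cell cannot be told apart.

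Rpl14 had 11.9 and 5.29 normalized counts in adult J2, against 343, 143 and 181 in wild-type P18 J2 (log2 difference -4.53, SE 0.78, limma adjusted p = 0.00464). Rpl28, a protein of the animal large subunit, had 10.1 and 8.90 in adult and 131, 172 and 82.3 in P18 (-3.56, SE 0.73, limma adjusted p = 0.015). Rps3 had 11.4 and 25.7 in adult and 185, 174 and 138 in P18 (-3.18, SE 0.66, limma adjusted p = 0.0158). Both adult libraries were far below all P18 libraries in these 3. The lowest difference, that of Rps15a (-4.64, limma adjusted p = 0.140), did not pass.

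Every call was lost without adult J2 replicate 2, and every call but that of Rpl14 without adult J2 replicate 1. In both fits the adult group is 1 library, assumed to vary like the other groups. The call of Rpl28 was also lost without wild-type J2 replicate 2 and that of Rps3 without wild-type J2 replicate 1. The leave-one-out medians stayed between -1.89 and -1.41. Markers of other cell types differed in the same comparison. Spermatid markers summed to 1638 and 887 in adult J2, against 0 to 2.45 in wild-type P18 J2, where Prm1, Tnp2 and Acrv1 were at 0 in all 3 libraries, and 6 of 6 rose by limma. Red cell markers (Hba-a1, Hbb-bs and Hbb-bt) summed to 3.06 and 3.30 in adult J2, against 72.1 to 324 in P18 J2, and Hbb-bs fell (log2 difference -4.76, limma adjusted p = 0.0056). Peritubular myoid markers (Acta2, Myh11, Tagln and Actg2) summed to 18.3 and 18.4 in adult J2, against 73.3 to 154 in P18 J2, with 3 of 3 tested below 0 (median -2.60) and 0 called. Of the Sertoli cell markers, 3 of 4 tested were below 0, and of the Leydig cell markers 4 of 5 were above 0, with 0 called in either list. The part of these markers in the lower ribosomal protein mRNAs was not tested.

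In flow-through, limma called 0 of 75 mRNAs between adult and wild-type P18 testis (background 3.08% higher and 0.154% lower), although 5 of 5 tested spermatid markers rose. At an unadjusted p under 0.05, 1 was higher and 3 were lower, against 599 and 237 of all 7141 genes. The median log2 difference of the 75 mRNAs was -0.07, against 0.28 for all genes. Adult lay wholly above P18 in 4 mRNAs and wholly below in 8 (16.6% and 8.57% of all genes). Rpl35 had the highest difference (2.94, limma adjusted p = 0.408), with 14.2 and 16.8 in adult and 0, 8.78 and 0 in P18. Rps2 had the lowest (-2.96, limma adjusted p = 0.333), with 0 and 19.6 in adult and 20.6, 39.7 and 49.1 in P18. The test of the age by fraction interaction by limma called 0 of 82 and 0 of all genes (background 0%). At an unadjusted p under 0.05, 0 were higher and 16 lower, against 316 and 198 of all 9526 genes. The median of this interaction was -1.50, against 0.06 for all genes, from Rpl10 (-6.17) to Rpl39l (2.59). It was below 0 in 72 of 82 mRNAs and in 4655 of all 9526 genes. The extreme of Rpl10 uses its values of 0 in wild-type P18 flow-through.

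Neither testis paralogue was called in any comparison. Rpl39l, an exit tunnel protein of male germ cells, had 15.97, 22.1 and 33.2 normalized counts in knock-out J2, 117 and 65.4 in adult J2, and 12.2, 26.5 and 3.55 in wild-type P18 J2. In flow-through it had 47.6, 31.8 and 23.5 in knock-out, 32.9 and 72.0 in adult, and 37.1, 48.5 and 33.2 in wild-type P18 libraries. Adult J2 lay above the other J2 libraries, and wild-type P18 J2 lay below wild-type P18 flow-through. Neither the adult against P18 difference in J2 (2.90, SE 1.02, limma adjusted p = 0.200) nor the J2 against flow-through difference in wild type (-1.76, SE 0.80, limma adjusted p = 0.331, turning to 1.88 after rescaling to a common total) passed the test. Its X-linked counterpart Rpl39 had 2.75, 47.2 and 9.08 in knock-out J2, 0 and 2.27 in adult J2, and 0.268, 5.94 and 16.05 in wild-type P18 J2, with 0 to 46.8 over the flow-through libraries.

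Rpl10l, whose loss arrests mouse spermatogenesis in meiosis, had 30.6, 140 and 164 in knock-out J2, 256 and 28.5 in adult J2, and 332, 141 and 50.4 in wild-type P18 J2. In flow-through it had 0, 8.94 and 12.2 in knock-out, 23.0 and 24.6 in adult, and 11.2, 30.8 and 24.8 in wild-type P18 libraries. Every J2 library lay above the flow-through libraries of its group. The log2 differences between fractions were 4.15 in knock-out, 1.81 in adult and 2.64 in wild type (limma adjusted p = 0.125, 0.853 and 0.271).

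The 2 pairs Rpl36al with Rpl36a and Rps4l with Rps4x also join an autosomal copy to an X-linked gene, Rps4l being the one annotated as a transcribed pseudogene. Rpl36al ranged from 12.4 to 81.0 in J2 and from 5.80 to 30.5 in flow-through over the 3 kinds of testis. Rpl36a was listed at 0 in 7 of the 8 flow-through libraries and had 4.64, 12.2 and 43.9 in knock-out J2, 6.60 and 2.58 in adult J2, and 165, 0 and 24.0 in wild-type P18 J2. Rps4l had 11.6, 42.4 and 51.2 in knock-out J2, 4.89 and 1.79 in adult J2, and 10.1, 23.3 and 8.004 in wild-type P18 J2. Rps4x had 40.6, 152 and 17.8, then 33.3 and 8.26, then 3.76, 2.13 and 37.9 in the same groups. Within each of the 4 genes the replicates spread over much of the range between groups, and limma called none of them in any comparison.

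**Figure D4:**
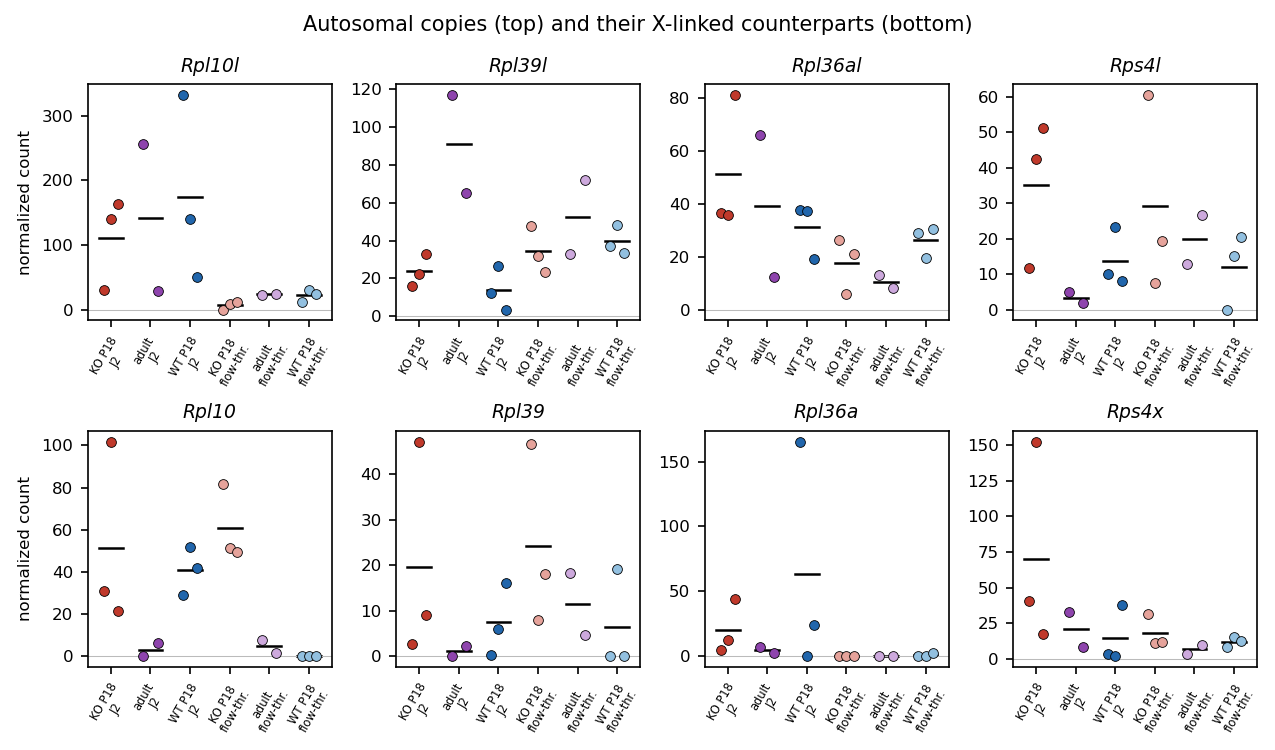
Points are normalized counts in single libraries and bars are group means, for 4 autosomal copies (top) and their X-linked counterparts (bottom). Rpl39l is highest in adult J2 (117 and 65.4), and Rpl10 is at 0 in wild-type P18 flow-through; levels are not divided by length, so panels are not comparable with each other.

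Of the other paralogues, Rpl22l1 had 95.7, 14.8 and 11.3 normalized counts in wild-type P18 J2 and was listed at 0 in all 3 wild-type flow-through libraries (limma adjusted p = 0.0821). Its parent Rpl22 had 53.4, 48.3 and 49.3 in J2 and 0, 11.1 and 17.1 in flow-through (log2 difference 3.09, limma adjusted p = 0.258). Rps27l, a stress-responsive copy of Rps27, had 64.8, 9.68 and 31.3 in J2 and 26.4, 13.9 and 34.4 in flow-through, and the fractions overlapped. Its parent Rps27 had 250, 0 and 15.3 in J2 and 7.75, 7.80 and 9.39 in flow-through. With its listed copy Rps27rt added, Rps27 had 250, 101 and 23.6 in J2 and 7.75, 15.8 and 25.8 in flow-through. Rpl3, the parent of Rpl3l, had 95.9, 4.10 and 81.6 in wild-type P18 J2 and 32.4, 44.5 and 49.9 in flow-through, which overlapped. Rpl6, the gene after which Rpl6l is named, had 14.0, 312 and 117 in J2 and 11.1, 8.78 and 0 in flow-through, with no overlap and no call. Rpl7l1 stayed at or below 25.5 in all libraries, and no paralogue or parent named here other than Rpl10 and Rpl7 was called.

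Rpl10 and its listed copy Rpl10-ps3 were at 0 in different flow-through groups. In flow-through, Rpl10 had 81.6, 51.2 and 49.5 normalized counts in knock-out, 7.57 and 1.59 in adult, and 0, 0 and 0 in wild-type P18 libraries. Rpl10-ps3 had 0, 0 and 0 in knock-out flow-through, 18.9 and 16.3 in adult, and 26.6, 33.7 and 36.5 in wild-type P18 libraries. Where one was at 0 in a whole flow-through group, the other was above 0 in each library of it. In J2, Rpl10 had 30.9, 102 and 21.2 in knock-out, 0 and 6.19 in adult, and 29.0, 51.7 and 42.0 in wild-type P18 libraries, and Rpl10-ps3 had 0, 12.6 and 117, then 0 and 6.78, then 0, 0 and 14.0 in the same groups. With the copy added, the wild-type J2 against flow-through difference of Rpl10 was 0.44 (limma adjusted p = 0.886), so the call was lost. How shared reads were assigned between the 2 was not tested.

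**Figure D5:**
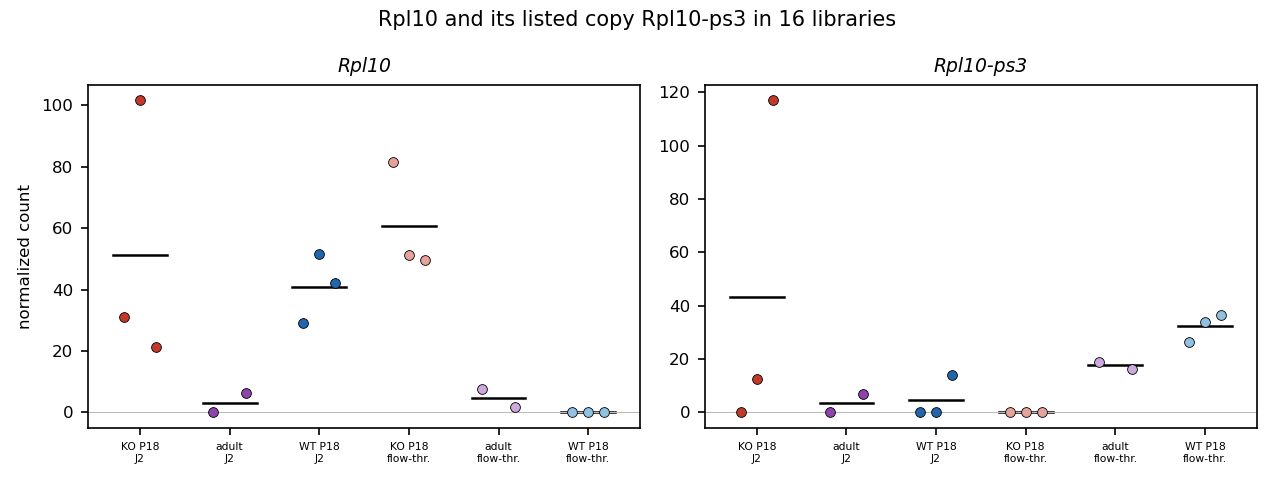
Points are normalized counts of Rpl10 (left) and of its listed copy Rpl10-ps3 (right) in single libraries, and bars are group means. In flow-through, knock-out libraries have 49.5 to 81.6 for Rpl10 and 0 for the copy, while wild-type P18 libraries have 0 for Rpl10 and 26.6 to 36.5 for the copy.

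The files listed 23 such copies (symbols ending in -ps, with or without a number, or in rt) for 18 of the ribosomal protein genes, of which 14 were above 0 in some library and 9 were at 0 in all. Rps12 was at 0 everywhere while Rps12-ps3 reached 61.3. With each mRNA summed with its copies, 16 of the 17 calls above were kept, all but that of Rpl10. Copies that the files do not list are not covered by this sum.

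Ribosomal components outside the naming rule had mostly positive differences between J2 and flow-through. Rps3a1, of the small subunit, had 111, 20.7 and 268 normalized counts in wild-type P18 J2 and 19.6, 23.7 and 15.2 in flow-through (log2 difference 2.11, limma adjusted p = 0.291). Fau (1.49) and the scaffold protein Rack1 (0.53) also had positive differences that did not pass. The median of the 4 tested was 2.06 in knock-out, 2.17 in adult and 1.33 in wild type, and limma called 0 of 4 in each.

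Other gene groups of translation had medians nearer to 0 between J2 and flow-through in the P18 libraries. For 16 further TOP mRNAs, such as elongation factors, the median log2 difference was -0.05 in knock-out, 0.43 in adult and 0.40 in wild type. For 24 initiation factors it was -0.19 in knock-out, 0.23 in adult and 0.53 in wild type, and for 35 tested genes of ribosome biogenesis -0.10, -0.22 and 0.38 in the same order. For adult against P18 in J2, the medians were -0.11, 0.24 and -0.70 for these 3 lists, against -1.62 for the ribosomal protein mRNAs. Limma called 0 genes of the 3 lists in any comparison. At an unadjusted p under 0.05 in wild type, 3 TOP mRNAs were higher and 0 lower, as were 1 and 2 initiation factors and 1 and 2 genes of ribosome biogenesis. The difference between these lists and the ribosomal protein mRNAs was not tested.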

How the data were processed

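Both fractions of J2-separated mouse testis RNA were sequenced in 16 strand-specific libraries (NuGEN Ovation SoLo), per the labels' protocols. The deposited values are a signal per gene on the scale of normalized counts, made by the authors. The submitters' processing notes name FastQC, Trimmomatic, Salmon, DESeq2 and mm10, without settings. Of 35920 gene IDs, 35446 matched a symbol.

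Tests used log2(value + 1) and limma 3.58.1 under R 4.3.3 (linear model, empirical Bayes with trend, two-sided, Benjamini-Hochberg over all genes tested). A gene needed a value of at least 10 in 2 libraries of the fit. J2 against flow-through and the interactions were fitted over 16 libraries, the other comparisons within a fraction. The code was tested on simulated data. Named genes were the called mRNAs, the 5 most abundant of each subunit, the extremes of each comparison, and the paralogues with their parents. Some genes that the rule names are not reported here. Genes, lists and tests were chosen with earlier results of these data known. Alternatives changed pseudocount, filter, scaling, libraries and block. One, summing copies, was added after seeing the data. No count test was run, since whole reads could not be recovered. Sequences are from RefSeq (GRCm38.p6).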

Additional observations from a re-analysis of the deposited data

Results flagged for a closer look

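In all, 7 mRNAs lay in opposite directions in 2 settings, with every library of the compared groups apart in each. Under the authors' scaling, J2 lay wholly below flow-through in adult testis and wholly above it in wild-type P18 testis for Rpl28, Rpl32, Rpl36 and Rps9. These were 4.88% of the 82 mRNAs, against 0.535% of all genes, and the reverse pattern was found in 0 mRNAs and 0.808% of all genes. The differences of the log2 differences were -3.53 for Rpl28, -2.39 for Rpl32, -4.42 for Rpl36 and -3.35 for Rps9. Rpl28 had 10.1 and 8.90 normalized counts in adult J2 and 13.7 and 34.4 in adult flow-through, against 131, 172 and 82.3 in wild-type P18 J2 and 30.2, 12.3 and 29.8 in wild-type P18 flow-through. The direction between fractions depends on the scaling. With a common total, 63 of the 82 mRNAs were called higher in adult J2 (36.3% of all genes) and 0 lower (0.115%).

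For Rpl10, Rpl31 and Rpl35, adult lay wholly below wild-type P18 in J2 and wholly above it in flow-through, with differences of -6.17, -5.14 and -4.50. Of the genes tested in both fractions, 3 of 75 mRNAs (4%) and 0.633% of all had this pattern, and 0 mRNAs and 0.902% of all had its reverse. With its listed copy added, Rpl10 had 26.4 and 17.9 in adult flow-through, against 26.6, 33.7 and 36.5 in wild-type P18 flow-through, so that adult lay wholly below and the opposite directions ended. All 3 were listed at 0 in at least 2 wild-type P18 flow-through libraries. None of the 7 passed the interaction test (limma adjusted p 0.425 to 0.826).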

How the results depend on the processing

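Many calls were lost under single alternatives, and the cause of each move was not tested. The mRNAs called higher in J2 numbered 10 in wild-type P18, against 17 with a filter at 50 (3.28% of all genes), 4 with no filter (0.102%), 5 with quantile normalization (0.388%), 72 with a common total (26.9% of all genes) and 2 to 7 with 1 library left out. In knock-out P18 they numbered 3, against 6 with a pseudocount of 5 (0.262% of all genes), 8 with a filter at 50 (1.16%), 1 with no filter (0.0429%), 74 with a common total (29.9%), 10 with only the groups compared (0.661%) and 0 to 2 with 1 library left out. In adults they numbered 0, against 63 with a common total (36.3% of all genes). The common total moved the median of all genes to 1.87 in wild type, 2.16 in knock-out and 2.74 in adults, and that of the ribosomal protein mRNAs to 5.01, 4.51 and 3.78. It also reversed Rpl39l in wild type (1.88), and gave medians of -0.53 and -0.29 for knock-out against wild type in J2 and flow-through and -0.46 for adult against P18 in flow-through. That last median was -0.42 with a filter at 50. Quantile normalization gave medians of 1.46 for wild-type J2 against flow-through and -2.03 for adult against P18 in J2. The 4 mRNAs lower in adult J2 became 2 with only the groups compared (0.229% of all genes) and 0 to 5 with 1 library left out.

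With 1 library left out, the medians ranged from -0.17 to 0.72 for J2 against flow-through in adults, -0.41 to 0.20 for the 2 genotypes in J2, -0.33 to 0.35 for the 2 ages in flow-through, -2.07 to -1.10 for the age interaction and -0.58 to 4.13e-05 for the genotype interaction. One J2 and one flow-through library share each of 8 codes in the header. Deviations of libraries with the same code had correlations of -0.0264 to 0.0306, and the code's own partner was the best match in 5 of 8. With 2 adult libraries per fraction, their deviations mirror each other. The 2 adult correlations are therefore 1 value (0.0306), and their 2 matches are 1 result. With the code as a replicate block, 3 mRNAs, among them Rps15 and Rpl31, were called in wild type (0.0735% of all genes) and 0 in knock-out (0.042%). Of the 17 calls, 17 were kept with a pseudocount of 5, a filter at 50 or a common total, 13 with only the groups compared, 12 with quantile normalization and 9 with no filter. The common total called 72 and 74 of the 82 mRNAs higher in wild-type and knock-out J2 (26.9% and 29.9% of all genes). Keeping the fraction calls under it therefore shows little. Low read numbers limit what a value under 10 in flow-through can show.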
